A study of Mus musculus with 42 samples.

Results

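Histone genes were examined in 42 total RNA libraries of mouse bone-marrow-derived macrophages (BMDM), macrophages grown in culture from marrow cells. The members were the protein-coding histone genes of the raw count table that reached at least 10 counts in at least 3 libraries. This rule kept 52 of the 37310 identifiers in the table. The table held 73 protein-coding histone genes, of which 21 were not members, and 12 of these had no count in any library. Of the 52 members, 43 belonged to the histone gene clusters, with 37 on chromosome 13, 5 on chromosome 3 and 1 on chromosome 11. These cluster genes encoded 5 H1 linker histones, 13 H2A, 8 H2B, 5 H3 and 12 H4 histones. The other 9 members lay outside the clusters and encoded variant histones, namely H1fx, H2afj, H2afv, H2afx, H2afy, H2afy2, H2afz, H3f3a and H3f3b. All 52 members were among the 11624 genes tested.

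DNA in the nucleus is wound around an octamer of the core histones H2A, H2B, H3 and H4, and linker histone H1 sits where the strand enters and leaves. Cells need new histones when they copy their DNA, and the cluster genes supply them in S phase. Their mRNAs mostly lack introns and a poly(A) tail, end just past a conserved stem-loop that is bound by the stem-loop binding protein SLBP, and are degraded rapidly once DNA synthesis stops. The variant genes outside the clusters are mostly spliced and polyadenylated and are expressed in cells that do not divide as well. H3.3, for example, encoded by H3f3a and H3f3b, is placed into chromatin independently of replication. Ribodepleted libraries made from total RNA keep transcripts without a poly(A) tail. BMDM grow in medium conditioned by L929 cells, a source of macrophage colony-stimulating factor, which drives the division of these cells.

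The mice were males, either with LysM-Cre, expressed from the Lyz2 locus of myeloid cells, and a floxed Irf5 allele (labelled KO) or wild type (labelled WT). Irf5 encodes interferon regulatory factor 5, a transcription factor of the inflammatory response. Untreated BMDM of both genotypes (Control) were taken at 0, 2 and 24 h, and others were given palmitate, a saturated fatty acid, or bacterial lipopolysaccharide (LPS) for 2 or 24 h. Each of the 14 groups held 3 libraries, and no source used here says whether these came from separate mice or cultures. The p-values therefore measure the spread between these libraries, which may be technical.

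The total count lay between 2848793 and 7743442 per library (median 5625399), and each of the 42 within-group pairs of libraries was further apart than counting noise alone would give. Irf5 was not lower in the libraries labelled KO, where its level was 267 to 430 CPM (TMM-scaled counts relative to library size) against 209 to 388 CPM in the libraries labelled WT. The genotype labels are therefore written as labels throughout. All 6 macrophage markers, among them Mertk and Fcgr1, had at least 102 counts in every library.

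Stem-loop sequences are shown first, because most cluster genes and only 1 gene outside the clusters held the motif. The motif searched was 16 bases long and read GG, 2 bases of any kind, CTTTT, 1 base of any kind, AG, 2 bases of any kind and CC, on the sense strand after the stop codon of annotated transcripts. It was found in 30 of the 43 cluster genes and in 1 of the 9 genes outside the clusters, H2afx. Among all 21901 protein-coding genes searched, 61 held it (0.279%), and 31 of those were members. It began 22 to 47 bases after the stop codon (median 33). In 6 cluster genes the annotation held no base after the stop, in 4 it held under 50, and Hist1h2bc, Hist2h2be and Hist1h4a had longer annotated ends without the motif. The stem varied, with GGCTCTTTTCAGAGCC in 15 members, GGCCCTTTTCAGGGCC in 6 and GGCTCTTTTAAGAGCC in 4. The sequences below are from GENCODE vM21 on GRCm38, written 5′ to 3′ with the motif in capitals.
Hist1h3b (chr13:23752816-23752841, plus strand): caaaGGCTCTTTTCAGAGCCacccac
Hist1h1c (chr13:23739508-23739533, plus strand): aaaaGGCTCTTTTCAGAGCCaccact
Hist1h1d (chr13:23555783-23555808, plus strand): aaacGGCTCTTTTCAGAGCCacccac
Hist1h2bk (chr13:22036296-22036321, plus strand): caaaGGCTCTTTTAAGAGCCactaaa
Hist2h2ac (chr3:96220412-96220437, minus strand): aaaaGGCTCTTTTTAGAGCCaccaaa
Hist1h4d (chr13:23581946-23581971, plus strand): caaaGGCCCTTTTCAGGGCCactacc
Hist1h4i (chr13:22040960-22040985, minus strand): taaaGGCCCTTTTTAGGGCCaccaca
H2afx (chr9:44335236-44335261, plus strand): caaaGGCCCTTTTAAGGGCCaccacc

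Promoters are shown for cluster genes that fell at LPS 24 h and for H3f3b, which rose at LPS 2 h. A RefSeq promoter window was matched for 47 of the 52 members. TATAAA, on either strand, stood in the window of 66.7% of 39 cluster genes, 12.5% of 8 genes outside the clusters and 15.7% of all 27025 promoters. CCAAT stood in 79.5%, 75.0% and 41.1%, respectively. The octamer ATTTGCAT, known from H2B promoters, stood in 66.7% of 6 cluster H2B genes, 18.2% of the other cluster genes and 2.0% of all promoters. A match is a description of the letters and not of a bound site. The stretches below run from 130 bases before the start of the gene to 20 bases into it (RefSeq, GRCm38.p6), with these 3 motifs in capitals on either strand.
Hist1h1b (chr13:21780606-21780755, minus strand): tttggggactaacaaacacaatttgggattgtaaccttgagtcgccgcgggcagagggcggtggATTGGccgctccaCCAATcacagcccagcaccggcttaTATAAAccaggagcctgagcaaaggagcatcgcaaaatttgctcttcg
Hist1h3b (chr13:23752215-23752364, plus strand): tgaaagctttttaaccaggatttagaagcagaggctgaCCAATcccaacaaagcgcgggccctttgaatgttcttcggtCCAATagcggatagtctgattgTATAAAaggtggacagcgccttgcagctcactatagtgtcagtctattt
Hist1h2bb (chr13:23746604-23746753, plus strand): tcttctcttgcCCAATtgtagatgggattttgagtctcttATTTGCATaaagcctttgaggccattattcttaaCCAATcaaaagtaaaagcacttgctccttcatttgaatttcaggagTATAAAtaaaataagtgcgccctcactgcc
H3f3b (chr11:116024485-116024634, minus strand): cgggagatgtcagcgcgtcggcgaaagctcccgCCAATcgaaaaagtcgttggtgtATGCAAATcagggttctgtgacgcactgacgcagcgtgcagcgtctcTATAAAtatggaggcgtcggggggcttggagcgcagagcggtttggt

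Levels were first compared between genes per kilobase of exon, as the mean over all 42 libraries. Hist1h1c, a linker histone gene, had the highest level at 137 CPM per kb, followed by H3f3b at 103, the H2A gene Hist1h2ak at 77.6 and the H2A gene Hist2h2ac at 59.2. The H2B gene Hist1h2bc stood at 56.9, H2afz, which encodes the variant H2A.Z, at 51.7, and H3f3a at 42.4 CPM per kb. The leading H3 and H4 genes of the clusters were Hist1h3b at 36.0 and Hist1h4d at 45.7 CPM per kb. At the lower end, H1fx stood at 1.17 and H2afy2 at 0.429 CPM per kb. In 31 of the 52 members every library held at least 10 counts.

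Several of these counts are uncertain. The kit was stranded, but no source used here states the strand setting of the counting or how reads with several matches were treated. Of the members, 39 shared at least some stretches of 100 bases with another histone gene, and 13 shared over 50% of them, so reads of near-identical copies could be split between genes. Among the 52 members, 8 overlapped a counted gene, and some of these also shared stretches. Among the 8 were Hist1h1e and Hist1h2be, which overlap each other on the same strand.

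The cluster genes together held 0.0399 to 0.121% of the counts of a library and the genes outside the clusters 0.065 to 0.1%. The summed cluster level at Control 0 h was 1233, 1184 and 1206 CPM in WT-labelled and 940, 976 and 915 CPM in KO-labelled libraries. At LPS 24 h it was 415, 471 and 426 CPM in WT and 397, 479 and 472 CPM in KO, lower than in every library of any other group. At LPS 2 h it was 669, 650 and 633 CPM in WT and 855, 787 and 795 CPM in KO, and the lowest library of the remaining conditions, 1 of palmitate 2 h, was at 851 CPM. The genes outside the clusters did not follow this order. Their sum lay between 642 and 803 CPM in every library except those of LPS 2 h, where it was 975, 1099 and 994 CPM in WT and 1081, 1039 and 1076 CPM in KO. H3f3b was the 1 of these 9 genes above Control 2 h in every LPS 2 h library (11.7% of all genes), and the other 8 overlapped. The median log2 fold change of the 9 at LPS 2 h was -0.11 in WT and 0.08 in KO. In bulk RNA, fewer cells that express a histone gene and less of its RNA per cell cannot be told apart.

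**Figure D1:**
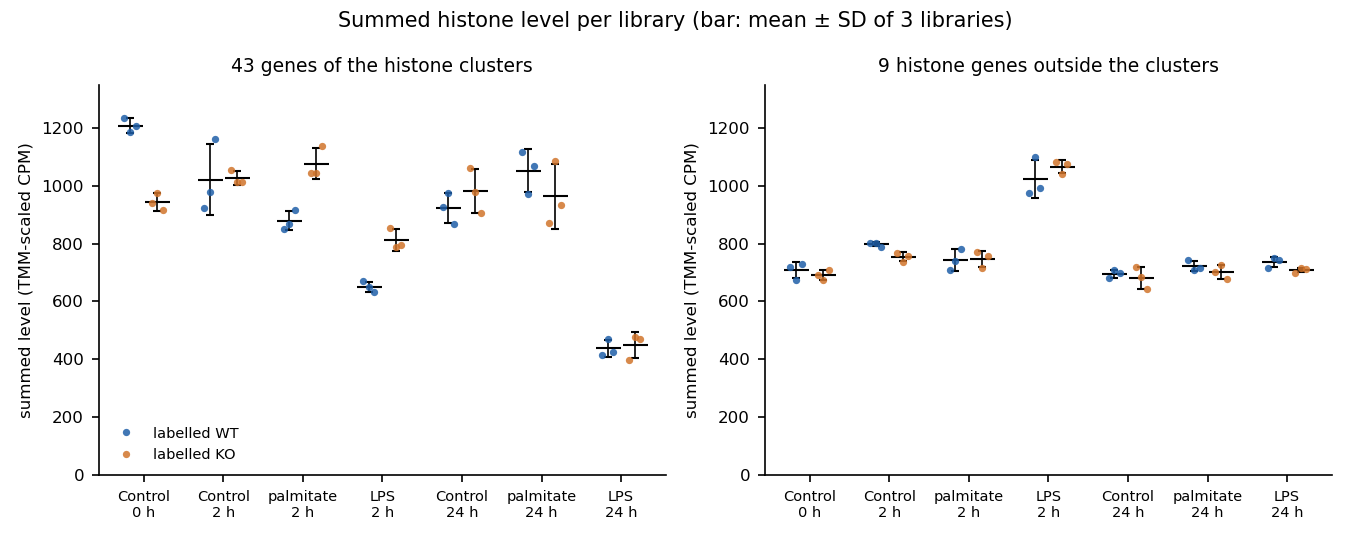
Summed level of the 43 cluster genes (left) and the 9 genes outside the clusters (right) in TMM-scaled CPM by condition, each point 1 library (blue labelled WT, orange labelled KO) and each bar the mean ± SD of 3 libraries. The cluster sum is 397 to 479 CPM at LPS 24 h against 868 to 1061 CPM at Control 24 h, and the sum outside the clusters is highest at LPS 2 h, at 975 to 1099 CPM. Of these 9 genes only H3f3b lies above Control 2 h in every LPS 2 h library.

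LPS for 24 h was set against Control of 24 h, averaging both genotypes. The cluster histone genes fell, with 38 of 43 lower, none higher and a median log2 fold change of -1.41, where the median of all genes tested was -0.01. In this comparison 52.1% of the 11624 genes were called in either direction, 25.6% higher and 26.5% lower. Adjusted p-values are from edgeR (quasi-likelihood F test, Benjamini-Hochberg), and a call means one under 0.05. Outside the clusters the genes split, with 3 higher, 3 lower and a median of -0.07. Each library of LPS 24 h lay below each library of Control 24 h for 31 of the 43 cluster genes, and 15.3% of all genes tested had such a pattern (16.3% had the reverse).

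By family, all 5 H1 genes fell (median log2 fold change -1.93), as did all 5 H3 genes (-2.06), 11 of 13 H2A genes (-1.60), 6 of 8 H2B genes (-1.07) and 11 of 12 H4 genes (-0.87). By position, 35 of the 37 genes on chromosome 13 fell, and 3 of the 6 on chromosomes 3 and 11. Among cluster genes with the stem-loop motif, 16 of the 16 with under 100 annotated bases past it fell (median -1.61), and 12 of the 14 with a longer annotated end (-0.95). Of the 10 without the motif and with under 50 bases after the stop, 9 fell (-1.89). Of the 3 with a longer end and no motif, 1 fell (median 0.09). All 13 genes that shared over 50% of their 100-base stretches with another histone gene fell, and 8 of the 11 that shared under 10%. The count of called members was 42 to 44 when any 1 library was left out.

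Of the linker histone genes, Hist1h1a and Hist1h1b shared no 100-base stretch with another histone gene, while Hist1h1e shared 24.7% of its stretches. Hist1h1b was at 38.4, 40.4 and 32.7 CPM in the WT libraries of Control 24 h and at 40.2, 38.9 and 35.8 CPM in the KO libraries. LPS for 24 h left it at 6.15, 8.76 and 8.87 CPM in WT and at 5.21, 8.95 and 6.14 CPM in KO. No LPS library reached a Control library, and the log2 change was -2.37 (SE 0.13, adjusted p 1.29e-21). Hist1h1d stood at 80.8, 70.4 and 71.7 CPM in the WT libraries and at 99.7, 89.4 and 77.0 CPM in the KO libraries of Control 24 h. Its LPS libraries held 19.8, 20 and 19.9 CPM in WT and 18.5, 25.6 and 24.1 CPM in KO. The groups did not overlap, with a log2 change of -1.93 (SE 0.10, adjusted p 2.86e-22). Hist1h1a moved by a similar amount, at -1.97 (adjusted p 7.49e-19).

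Hist1h1c, the most abundant histone transcript of the clusters per kb, fell less. Its level was 190, 197 and 187 CPM in WT and 206, 192 and 171 CPM in KO at Control 24 h. With LPS it was 103, 110 and 101 CPM in WT and 104, 120 and 116 CPM in KO. These groups did not overlap either, and the log2 change was -0.81 (SE 0.06, adjusted p 5.22e-16). The 95% intervals of the log2 fold changes of Hist1h1c (-0.93 to -0.68) and of Hist1h1d (-2.13 to -1.72) were apart. Hist1h1e, which overlaps Hist1h2be, had a log2 fold change of -0.99.

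The largest decrease among the members was in Hist1h2af, an H2A gene. It was at 18.9 to 27.5 CPM (median 23.8) in the 6 libraries of Control 24 h and at 1.64 to 4.79 CPM (median 4.41) in those of LPS 24 h. Its log2 fold change was -2.66 (SE 0.18, adjusted p 8.66e-18). Hist1h2ak, the H2A gene with the highest level per kb, went from 30.6 to 37.2 CPM (median 34.4) to 6.55 to 13.2 CPM (median 10.2), a log2 fold change of -1.80. On chromosome 3, Hist2h2ac fell by less, from 30.1 to 35.3 CPM (median 34.3) to 16.2 to 22.8 CPM (median 18.6). Its log2 fold change was -0.78 (adjusted p 1.14e-09).

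Among the H3 genes, Hist1h3b was at 22.7 to 31.7 CPM (median 27.2) in Control 24 h and at 3.06 to 6.58 CPM (median 4.74) in LPS 24 h, a log2 change of -2.46 (SE 0.15, adjusted p 2.07e-19). Hist1h3e had a log2 fold change of -1.40. Of the H4 genes with the highest levels per kb, Hist1h4h was at 19.5 to 23 CPM (median 20.6) and then at 6.45 to 9.40 CPM (median 7.62), a log2 fold change of -1.41. Hist1h4d was at 51.8 to 63.7 CPM (median 56.5) and then at 26.2 to 40.5 CPM (median 31.8), a log2 fold change of -0.79. All 4 genes were lower in every LPS library than in every Control library. The H2B gene Hist1h2bb was at 9.90 to 19.8 CPM (median 14.4) and then at 2.68 to 5.41 CPM (median 3.45), a log2 fold change of -1.95.

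The 5 cluster genes that were not called were Hist1h2bc, Hist2h2be, Hist3h2a, Hist1h4i and Hist2h2ab. Hist1h2bc, the H2B gene with the highest level per kb, was at 58.0, 73.1 and 59.1 CPM in WT and 69.2, 61.9 and 68.3 CPM in KO at Control 24 h. After LPS it was at 73.7, 72.3 and 70.6 CPM in WT and 71.2, 58.4 and 69.8 CPM in KO. The groups overlapped, and the log2 change was 0.09 (95% interval -0.05 to 0.23, adjusted p 0.276). Hist1h2bc is 1 of the 3 cluster genes with a long annotated end and no stem-loop motif. The other 4 had few counts, with medians at LPS 24 h of 1.57 CPM for Hist2h2be, 2.22 for Hist3h2a, 5.12 for Hist1h4i and 1.84 for Hist2h2ab. Their adjusted p-values were 0.857, 0.961, 0.433 and 0.15.

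**Figure D2:**
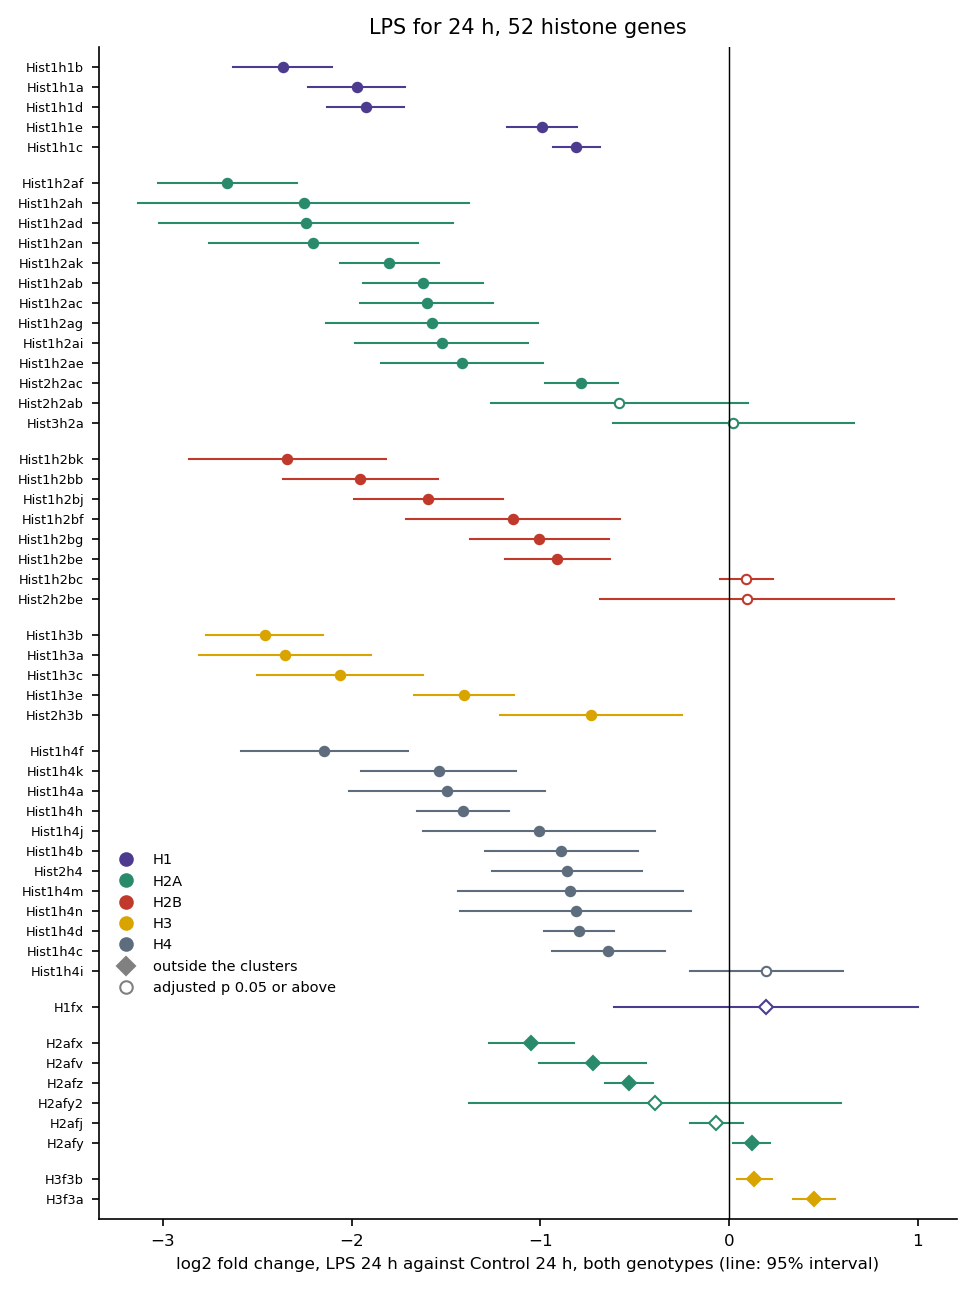
Log2 fold change of each of the 52 members at LPS 24 h against Control 24 h over both genotypes, with its 95% interval as a line, coloured by family, with diamonds for genes outside the clusters and open symbols for genes that did not pass the test. The 43 cluster genes lie between -2.66 (Hist1h2af) and 0.20 (Hist1h4i), and the 9 genes outside the clusters between -1.05 (H2afx) and 0.45 (H3f3a).

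Outside the clusters the direction differed between variants. H2afx, which encodes H2A.X, the variant phosphorylated at DNA breaks, was at 21.9, 22.8 and 23.3 CPM in WT and 31.0, 25.7 and 22.5 CPM in KO at Control 24 h. After LPS it was at 10.9, 10.6 and 10.2 CPM in WT and 14.3, 11.9 and 12.9 CPM in KO. It fell without overlap of the groups (log2 fold change -1.05, SE 0.11, adjusted p 1.99e-11), and it is the 1 gene outside the clusters with the stem-loop motif. The 2 genes of H2A.Z also fell, H2afz by 0.53 on the log2 scale (95.6 to 113 CPM in Control, 63.9 to 78.4 CPM in LPS) and H2afv by 0.72 on the log2 scale.

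The 2 genes of H3.3 went up. H3f3a was at 138, 156 and 140 CPM in WT and 142, 135 and 124 CPM in KO at Control 24 h. After LPS it was at 193, 212 and 219 CPM in WT and 178, 170 and 172 CPM in KO, above every Control library (log2 fold change 0.45, SE 0.06, adjusted p 1.04e-09). H3f3b moved little, from 215 to 243 CPM (median 229) to 243 to 255 CPM (median 251), a log2 fold change of 0.13 (adjusted p 0.0137). H2afy, which encodes macroH2A1, had a log2 fold change of 0.12 (adjusted p 0.0341). The calls of H3f3b and H2afy were lost in each genotype alone, with all genes that had a count, and on library totals without TMM, where the log2 fold changes were 0.07 and 0.06. The call of H3f3b was also lost without KO Control 24 h library 3 (0.11). That of H2afy was lost without WT Control 24 h library 2, KO Control 24 h library 3, WT LPS 24 h library 2 or KO LPS 24 h library 2 (0.09 to 0.11). H2afj, H1fx and H2afy2 did not pass the test, at -0.07, 0.20 and -0.39.

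Within each genotype the picture of the cluster genes was alike. In the libraries labelled WT, 33 of 43 fell (median log2 fold change -1.44), where 19.9% of all genes were called lower, and in those labelled KO, 38 of 43 (median -1.40), where 21.0% were. The difference between the genotypes in the response to LPS at 24 h passed the test for 0 of the 52 members and for 0.0086% of all genes. At an unadjusted p under 0.05 it had 2 cluster genes, and 628 of the 11624 genes tested.

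Genes that make, mature and use histones were described beside the members, from lists written for this purpose. Of all genes tested at LPS 24 h, 25.6% were called higher and 26.5% lower. At LPS 24 h all 27 tested genes of the mitosis list fell, with a median log2 fold change of -1.96, among them Mki67 (-1.61) and Top2a (-1.70). Of the 46 DNA replication genes 28 fell and 1 rose (median -0.48). Pcna, the sliding clamp of the replication fork, had a log2 fold change of -0.92, and Rrm2, a subunit of ribonucleotide reductase, of -1.72. Of the 22 histone chaperones 11 fell and 3 rose (median -0.23). Asf1b, which hands H3 and H4 to the replication fork, fell by 1.06 on the log2 scale, and Daxx, a chaperone of H3.3, rose by 1.45.

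The list of histone mRNA maturation did not move as 1 group, with 3 higher and 3 lower of 15 tested (median -0.06), where 52.1% of all genes were called. Lsm11, a subunit of the U7 particle that directs the cut after the stem-loop, was at 6.45 to 10 CPM (median 7.83) in Control 24 h and at 2.98 to 4.89 CPM (median 3.66) in LPS 24 h, a log2 fold change of -1.09. Slbp was at 32.8 to 44.0 CPM (median 36.8) and then at 28.5 to 34.8 CPM (median 31.6), a log2 fold change of -0.24 (adjusted p 0.0149). Upf1, a helicase of histone mRNA decay, rose by 0.60. Npat, the coactivator of the cluster genes, did not pass the test at -0.10.

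Markers of other cells were looked at in the same comparison. The summed level of the 6 macrophage markers was 7674 to 8739 CPM at LPS 24 h and 4704 to 5417 CPM in the libraries of every other condition, with 4 higher and 2 lower. The sum of the 10 granulocyte precursor markers was 331 to 451 CPM at LPS 24 h and 59.2 to 219 CPM at Control 24 h, with 1 of the 6 tested higher and 4 lower (median log2 fold change -1.25). The higher one was Lcn2, which macrophages can also express and which went from 4.45 to 20.7 CPM to 275 to 420 CPM. The sum of the 4 dendritic cell markers was 2.24 to 8.68 CPM at Control 24 h and 1.32 to 3.54 CPM at LPS 24 h, with all 3 tested lower (median -1.53) and Xcr1 without a count in 36 libraries. Erythroid markers had at most 2 counts in any library. The part of these shifts in the histone levels was not tested.

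LPS for 2 h was compared with Control of 2 h in the same way. The cluster genes lay lower here too, by less: 21 of 43 fell, none rose, all 43 log2 fold changes were below 0 and the median was -0.51. Of all genes tested 34.2% were called, 19.0% higher and 15.2% lower, and their median was -0.02. The H1 and H2A genes made up most of the calls, with 4 of 5 and 9 of 13 lower, against 4 of 8 for H2B, 1 of 5 for H3 and 3 of 12 for H4. Every LPS library lay below every Control library for 3 cluster genes, Hist1h1c, Hist1h1d and Hist1h2ae, where 5.3% of all genes had such a pattern. With library totals in place of TMM, the median of all genes shifted from -0.02 to -0.19, 1362 genes were called higher and 4281 lower in place of 2212 and 1766, and 43 members were called, 42 of them lower. Leaving out 1 library gave 16 to 30 called members.

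Hist1h1d showed the change at 2 h most clearly. It was at 54.1, 66.3 and 87.8 CPM in WT and 84.9, 77.4 and 71.0 CPM in KO at Control 2 h, and at 31.5, 24.8 and 26.0 CPM in WT and 50, 38.0 and 48.4 CPM in KO at LPS 2 h. The groups did not overlap, and the log2 change was -1.08 (SE 0.10, adjusted p 6.36e-13). Hist1h1c was at 247 to 363 CPM (median 302) in Control and at 175 to 232 CPM (median 201) in LPS, a log2 change of -0.58 (SE 0.06, adjusted p 1.74e-11). Hist1h1b had a log2 fold change of -0.60 (adjusted p 4.44e-05), with 25.1 to 37.8 CPM (median 32.7) in Control and 13.3 to 26.6 CPM (median 21.8) in LPS, so that its groups overlapped. Hist2h2ac, with a log2 fold change of -0.70 (adjusted p 1.26e-07), went from 26.5 to 39.2 CPM (median 33.6) to 14 to 31.5 CPM (median 21.1).

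Several genes with large decreases at 24 h did not pass the test at 2 h. Hist1h3b was at 17, 13.6 and 30.5 CPM in WT and 24.6, 19.5 and 22 CPM in KO at Control 2 h, and at 17.5, 14 and 16 CPM in WT and 22.4, 19.6 and 21.8 CPM in KO at LPS 2 h. These groups overlapped, with a log2 fold change of -0.23 (95% interval -0.50 to 0.05, adjusted p 0.209). Hist1h2af had a log2 fold change of -0.31 (adjusted p 0.114) and Hist1h1a of -0.27 (adjusted p 0.0773). In contrast, Hist3h2a and Hist2h2be, both uncalled at 24 h, had log2 fold changes of -1.31 and -1.36 at 2 h. Both had few counts, with medians of 1.04 and 1.14 CPM at LPS 2 h against 3.06 and 2.53 CPM at Control 2 h, and neither passed in the WT libraries alone.

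H3f3b went up at 2 h. It was at 334, 348 and 323 CPM in WT and 316, 299 and 317 CPM in KO at Control 2 h, and at 532, 632 and 547 CPM in WT and 561, 586 and 613 CPM in KO at LPS 2 h. Its log2 change was 0.84 (SE 0.05, adjusted p 8.04e-22), and H3f3b was the 1 member above Control in every LPS library (11.7% of all genes). H3f3a had a log2 fold change of 0.16 (adjusted p 0.0215), which turned to -0.0052 with library totals in place of TMM and was lost without any of 5 libraries (0.09 to 0.15), namely WT library 3 or KO library 1 or 3 of Control, WT library 2 or KO library 1 of LPS. H2afj had a log2 fold change of -0.19, a call lost in the WT libraries alone and without any of 4 libraries (WT library 3 or KO library 1 or 3 of Control, KO library 2 of LPS), and H2afz did not pass the test at -0.01.

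**Figure D3:**
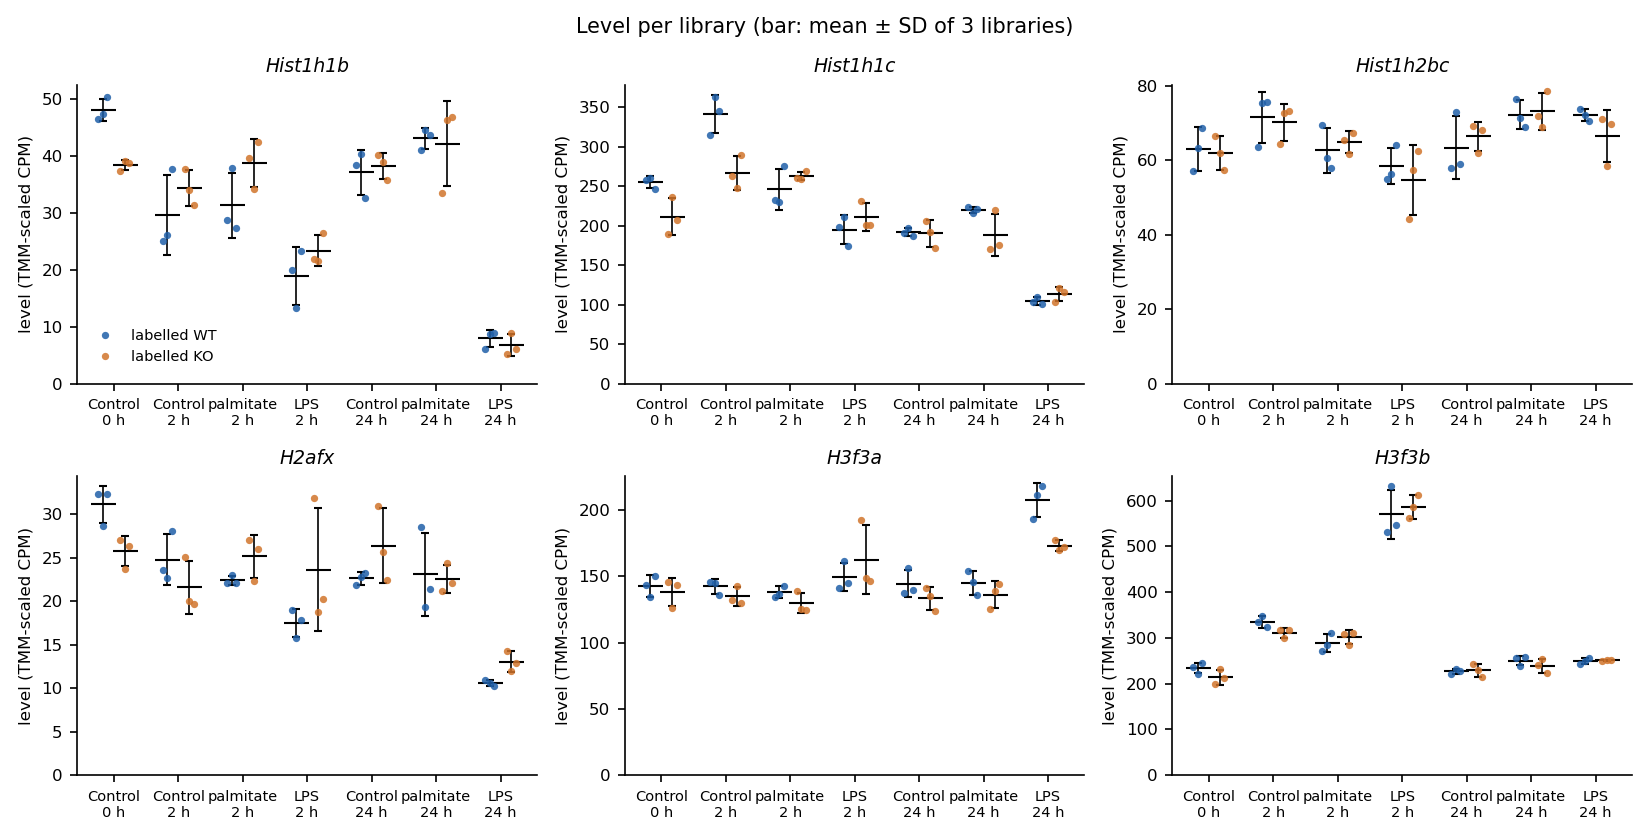
Level of 6 members in TMM-scaled CPM by condition, each point 1 library (blue labelled WT, orange labelled KO) and each bar the mean ± SD of 3 libraries. Hist1h1b is lowest at LPS 24 h (5.21 to 8.95 CPM), Hist1h2bc overlaps between LPS 24 h and Control 24 h, and H3f3b is highest at LPS 2 h (532 to 632 CPM) with a smaller rise in Control at 2 h.

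The change from 2 h to 24 h of LPS was tested as a difference of differences, a comparison chosen after seeing the data. It was called for 32 of 43 cluster genes, 28 of them with a more negative value at 24 h and 4 with a less negative or higher one, where 46.3% of all genes were called. The largest shifts toward lower values were those of Hist1h2af (-2.35), Hist1h3a (-2.24), Hist1h3b (-2.23) and Hist1h3c (-2.04). The 4 cluster genes that shifted up were Hist2h2be, Hist3h2a, Hist1h4i and Hist1h2bc, and the calls of Hist2h2be and Hist1h4i were lost without any of 7 and any of 2 of the 24 libraries. Outside the clusters H3f3b (-0.71), H2afx (-0.83) and H2afz (-0.52) shifted down and H3f3a (0.29) up. The 2 comparisons use separate libraries.

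**Figure D4:**
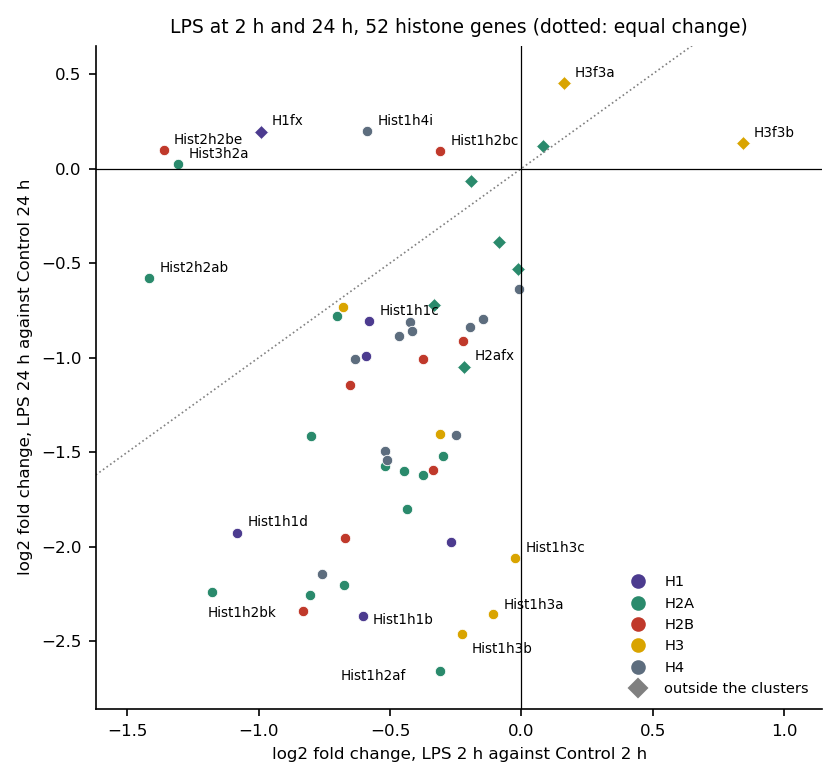
Log2 fold change of the 52 members at LPS 2 h (horizontal) and LPS 24 h (vertical) against Control of the same time, coloured by family, with diamonds for genes outside the clusters and the dotted line where both are equal. Most cluster genes lie below the line, the H3 genes Hist1h3a, Hist1h3b and Hist1h3c lie near 0 at 2 h and near -2 at 24 h, and H3f3b lies alone at 0.84 on the horizontal axis.

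The lists of related genes were looked at in the same comparison, in which 34.2% of all genes were called. At LPS 2 h Mki67, a marker of dividing cells, was at 553 to 825 CPM (median 682) against 162 to 263 CPM (median 233) in Control, a log2 fold change of 1.63 (adjusted p 3.99e-25). Of the mitosis list 2 genes rose and 2 fell of 27, and of the DNA replication list none rose and 8 fell of 46 (median -0.08). Pcna did not pass the test at 0.07. Among the maturation genes Npat fell, from 16.9 to 26.5 CPM (median 22.1) to 11.1 to 20.8 CPM (median 14.9), with a log2 fold change of -0.55 (adjusted p 0.000455). Casp8ap2 fell by 0.29 on the log2 scale, Srrt rose by 0.29, and Slbp did not pass the test at -0.15. Of the 15 tested maturation genes 1 rose and 2 fell, and of the chaperones 5 rose and 2 fell of 22. The sum of the granulocyte precursor markers was 50.1 to 243 CPM at LPS 2 h and 20.7 to 138 CPM at Control 2 h, with 5 of the 6 tested higher (median log2 fold change 0.87). Its part in the histone levels was not tested.

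By genotype at LPS 2 h, 15 of 43 cluster genes were lower in the libraries labelled WT (median log2 fold change -0.61, 9.1% of all genes called lower) and 8 in those labelled KO (median -0.33, 9.16% of all genes). The difference between the genotypes passed the test for 0 members and for 0.0% of all genes. At an unadjusted p under 0.05 it had 5 cluster genes, and 810 of the 11624 genes tested.

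Palmitate was compared with the same Control libraries as LPS. At 2 h it gave 1 call among the members, and 0.542% of all genes were called. Hist1h1c was at 232, 229 and 276 CPM in WT and 260, 260 and 268 CPM in KO, against 315, 363 and 346 CPM in WT and 263, 247 and 289 CPM in KO at Control 2 h. Its log2 fold change was -0.25 (SE 0.06, adjusted p 0.0262), and the KO libraries overlapped Control. In the KO libraries alone the log2 change was -0.02 (adjusted p 1.00). The call was lost without any of 8 of the 12 libraries, the exceptions being WT library 1 and KO library 2 of Control and library 3 of both palmitate groups (-0.21 to -0.25 without 1 of the 8). At 24 h no member was called by edgeR, where 2.57% of all genes were, and no member was called by DESeq2 either. At an unadjusted p under 0.05 there were 5 cluster genes and 1 other member, and 1406 of the 11624 genes tested. The genotype difference in the palmitate response passed the test for 0 members at either time. At an unadjusted p under 0.05 it had 4 cluster genes at 2 h and 1 at 24 h. Of all 11624 genes tested, 486 at 2 h and 411 at 24 h had such a p. None of the genes in the 4 related lists was called for palmitate.

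Time in culture without treatment moved a few members. From 0 to 2 h, 1 cluster gene rose and 9 fell, where 16.7% of all genes were called (9.35% higher, 7.36% lower). The riser was Hist1h1c, at 190 to 260 CPM (median 241) and then 247 to 363 CPM (median 302), a log2 fold change of 0.38 (adjusted p 1.35e-06). The 9 that fell included Hist1h1b (-0.43), Hist1h3b (-0.41) and Hist1h1a (-0.37), all with overlapping groups. These values average both genotypes. For Hist1h1a every WT library was lower at 2 h than at 0 h, while the KO libraries of these times overlapped. Its genotype difference changed by 1.25 on the log2 scale between them, as described below. The 13 called members became 7 without WT Control 2 h library 2 and 8 without WT Control 0 h library 1, WT Control 2 h library 1 or KO Control 2 h library 3. H3f3b rose without overlap, from 198 to 245 CPM (median 227) to 299 to 348 CPM (median 320), with a log2 fold change of 0.53 (adjusted p 2.79e-13).

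From 2 to 24 h both H3f3b and Hist1h1c fell, H3f3b with a log2 fold change of -0.50 (adjusted p 2.45e-12) and Hist1h1c with -0.66 (adjusted p 8.67e-13), where 18.3% of all genes were called. H2afz rose by 0.22 and H2afj fell by 0.22 on the log2 scale between these times. Without WT Control 2 h library 3, 8 members were called between 2 and 24 h in place of 4. The DNA replication list had 13 genes higher and 1 lower at 24 h than at 2 h. Between 0 and 24 h (16.5% of all genes called, 7.9% higher and 8.62% lower, or 1679 genes higher and 581 lower on library totals) Hist1h1c, Hist1h1e and Hist2h2ac fell by 0.25 to 0.28 on the log2 scale, as did H2afj, and H2afy2 rose by 1.87. The calls of Hist1h1e and Hist2h2ac were lost on library totals, and without any of 9 and any of 8 of the 12 libraries. These changes average both genotypes. For Hist2h2ac the WT libraries of 0 h lay above all those of 24 h, while the KO libraries of 0 h lay within the range of 24 h. The genotype difference of Hist1h1e changed by 0.62 on the log2 scale between these times, as described below. H2afy2 had at most 12 counts in a library, and its call was lost without WT Control 0 h library 2 (1.68), KO Control 0 h library 2 (1.78) or WT Control 24 h library 1 (1.51).

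The libraries labelled KO and WT were compared in each of the 7 conditions. A difference in cluster histones stood out in Control at 0 h, where 11 of 43 cluster genes were lower in the libraries labelled KO and none was higher. Here 12.5% of all genes were called, 6.4% higher and 6.06% lower. The median log2 fold change was -0.35, and 36 of the 43 lay below 0. Every library labelled KO lay below every library labelled WT for 23 cluster genes, where 13.9% of all genes did so (14.1% the other way). The 11 were 3 of 5 H1 genes, 4 of 13 H2A, 0 of 8 H2B, 1 of 5 H3 and 3 of 12 H4 genes. No member outside the clusters was called. With library totals in place of TMM, 6 cluster genes were lower and H2afz was higher, while the calls over all genes went from 744 higher and 704 lower to 1195 higher and 358 lower.

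Hist1h4d was at 68.2, 68.0 and 70.7 CPM in WT and at 45.5, 45.8 and 53.2 CPM in KO at Control 0 h. Its log2 fold change was -0.52 (adjusted p 0.00299), and the groups did not overlap. Hist1h1a was at 53.2, 44.0 and 43 CPM in WT and at 29.2, 27.7 and 24.8 CPM in KO, a log2 change of -0.77 (SE 0.15, adjusted p 0.000329). Hist2h2ac was at 51.3, 47.9 and 44.7 CPM in WT and at 34.7, 32.3 and 35.2 CPM in KO, a log2 fold change of -0.49 (adjusted p 0.00559). Hist1h4h was at 23.3, 25.6 and 19.8 CPM in WT and at 14.9, 12.8 and 16.2 CPM in KO, a log2 fold change of -0.64 (adjusted p 0.00399). These 4 calls held with any 1 library left out. The other 7, Hist1h1c, Hist1h1d, Hist1h2ab, Hist1h2af, Hist1h2ak, Hist1h3e and Hist1h4c, had log2 fold changes of -0.27 to -0.66 and each lost its call without any of 2 to 5 of the 6 libraries. The 11 calls became 6 without WT library 3, and 6, 7 and 5 without KO libraries 1, 2 and 3.

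Of all genes at Control 0 h, 6.4% were called higher and 6.06% lower in KO. Among related genes, 5 of 46 DNA replication genes were lower in KO and none higher, among them Pcna (-0.39) and Mcm6 (-0.36). The 5 became 1 to 4 with 1 library left out, and 1 on library totals. Of the chaperones 1 was higher and 2 were lower, of the maturation genes 2 were higher and none lower, and of the mitosis genes 1 was higher, Mki67 (0.31), and none lower. The libraries of this comparison also differed in other cells. The sum of the fibroblast markers was 0.904, 0.631 and 0.529 CPM in WT and 47.6, 42.1 and 69.2 CPM in KO, with 3 of 3 tested of 5 higher. Dcn, a defining fibroblast marker, had no count in any WT library and in 2 of the 3 KO libraries. The granulocyte precursor sum was 50.8 to 62.1 CPM in WT and 81.9 to 87.9 CPM in KO, with 1 of 6 tested markers higher. The part of these markers or their cells in the histone difference was not tested.

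The genotype difference was then read at the other times. At Control 2 h the median over the cluster genes was 0.20 and 1 member was called, Hist1h1c at -0.36 (adjusted p 0.0281, 0.49% of all genes called). It was at 315, 363 and 346 CPM in WT and 263, 247 and 289 CPM in KO. The call was lost without WT library 2 or 3 or KO library 1 or 2 (-0.30 to -0.34). At Control 24 h (0.12% of all genes called), palmitate 24 h (0.0688%) and LPS 24 h (0.146%) no member was called by edgeR, with medians over the cluster genes of 0.09, -0.11 and 0.08. At an unadjusted p under 0.05 these comparisons had 3, 3 and 1 cluster genes and 1 other member each. Of all 11624 genes tested, 587, 891 and 1056 had such a p. The granulocyte precursor sum was 20.7 to 37.5 CPM in WT and 71.3 to 138 CPM in KO at Control 2 h, with 5 of 6 tested markers higher. At Control 24 h it was 59.2 to 65.9 CPM in WT and 138 to 219 CPM in KO, with 4 of 6 higher. The fibroblast markers were not particular to 0 h. Col1a1, a gene of that list, was at 0.387 to 31.7 CPM in WT and 41.0 to 59.1 CPM in KO at Control 2 h. At Control 24 h it was at 0.342 to 24.3 CPM in WT and 24.9 to 84.8 CPM in KO. None of the 3 tested fibroblast markers was called at either time. The part of either list in the histone values was not tested.

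A few cluster genes were called higher in the libraries labelled KO at palmitate 2 h and LPS 2 h. Of the 43 cluster genes, 39 lay above 0 at palmitate 2 h, 36 at LPS 2 h and 35 at Control 2 h. As given above, the genotype difference in the response to either treatment was called for no member. At palmitate 2 h (0.146% of all genes called) Hist1h1d was at 60.8, 45.9 and 50.7 CPM in WT and 73.1, 84.9 and 94.1 CPM in KO, a log2 fold change of 0.68 (adjusted p 0.00471). Hist2h2ac was at 24.8, 26.8 and 24.6 CPM in WT and 31.9, 38.2 and 46.1 CPM in KO, a log2 fold change of 0.61 (adjusted p 0.02). The groups did not overlap in either gene. The call of Hist1h1d was lost without WT library 2, WT library 3 or KO library 3 (0.59 to 0.66). That of Hist2h2ac was lost without any WT library or KO library 3 (0.47 to 0.66). At LPS 2 h (0.465% of all genes called) the same 2 genes and Hist1h1e were higher in KO, with log2 fold changes of 0.74 for Hist1h1d (adjusted p 0.0149), 0.84 for Hist2h2ac (adjusted p 0.00254) and 0.65 for Hist1h1e (adjusted p 0.0108).

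The levels at LPS 2 h behind these calls were apart as well, with KO library 1 the highest for all 3 genes. That library had the lowest total count of any library (2848793). The spread beyond counting noise (chi-square per degree of freedom) was 9.32 and 7.76 in its pairs and 2.94 between KO libraries 2 and 3. Hist2h2ac was at 17.9, 14 and 14.1 CPM in WT and 31.5, 24.3 and 25.9 CPM in KO, and Hist1h1e was at 45.4, 56.5 and 36.9 CPM in WT and 93.2, 68.4 and 60.9 CPM in KO. Over the 43 cluster genes the median was 0.31 at palmitate 2 h and 0.36 at LPS 2 h. Over the 27 mitosis genes it was 0.49 at palmitate 2 h, 0.37 at LPS 2 h and 0.41 at Control 2 h, with 25 above 0 in each and 0, 1 and 1 called. Over the 46 DNA replication genes it was 0.16, 0.14 and 0.17, and none was called. With only the 6 libraries of LPS 2 h in the fit no member was called. The call of Hist1h1d was lost without WT library 2 or 3 or KO library 1 or 3 (0.67 to 0.71), and that of Hist1h1e without WT library 3 (0.49) or KO library 1 (0.48). The granulocyte precursor sum was 50.1 to 76.8 CPM in WT and 137 to 243 CPM in KO at LPS 2 h, with 3 markers called higher, and 47.1 to 61.2 CPM in WT and 95.8 to 163 CPM in KO at palmitate 2 h, with 4. The fibroblast sum was 0.758, 152 and 3.02 CPM in KO and at most 0.715 CPM in WT at LPS 2 h, and 17.9, 0.776 and 305 CPM in KO and 39.4, 0 and 1.25 CPM in WT at palmitate 2 h, with no marker called. At palmitate 2 h, KO library 3 had the highest of these sums and the highest level of Hist1h1d and of Hist2h2ac. At LPS 2 h, KO library 2 had the highest sum and the lowest KO level of both genes. The part of any of these lists in the histone difference was not tested.

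**Figure D5:**
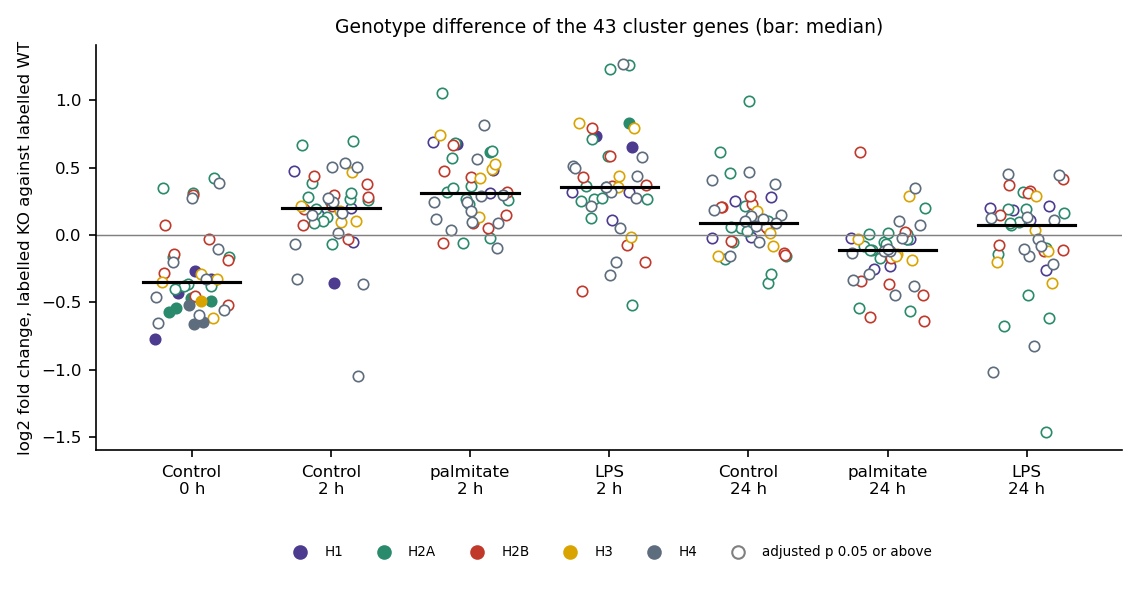
Log2 fold change of the 43 cluster genes between libraries labelled KO and WT in each condition, each point 1 gene coloured by family and filled where it passed the test, with a bar at the median. The median is -0.35 at Control 0 h and lies between -0.11 and 0.36 in the other 6 conditions.

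The change of the genotype difference over time in Control was tested directly, again as a comparison chosen after seeing the data. Between 0 and 2 h, 8 of 43 cluster genes were called, 7 with a higher and 1 with a lower difference in KO at 2 h, where 4.77% of all genes were called. The largest upward shift was that of Hist1h1a (1.25), whose KO libraries held 29.5, 40.1 and 28 CPM and WT libraries 22.4, 19.7 and 27.7 CPM at 2 h. The downward shift was that of Hist1h4i (-1.44), for which DESeq2 gave no adjusted p. The 8 became 4 or 5 without WT library 1 or 3 or KO library 2 of 0 h, WT library 1 or 2 of 2 h, or KO library 1 or 2 of 2 h, and 13 without WT library 3 of 2 h. Between 0 and 24 h, 3 were called, all upward (1.83% of all genes). These were Hist1h1d (0.68), Hist1h4d (0.62) and Hist1h1e (0.62), and none of these kept its call on library totals without TMM. None was called without any of 8 of the 12 libraries, and 1 was called without WT library 1 of 24 h.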

How the data were processed

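BMDM RNA was depleted of ribosomal RNA, built into stranded libraries and read from both ends. Per the submitters' processing notes the tools were fastp 0.19.11 and STAR 2.7.3a, and the build was mm10 (GRCm38). The authors deposited raw counts per gene in 1 table, without normalisation. The annotation release, the strand setting of the counting and the treatment of multi-mapped reads are not given in the sources used here. The study tested genotypes with DESeq2.

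Table columns name a group but not a replicate, so library numbers (1 to 3) follow column order and do not pair libraries. No column was left without a group (0 unmapped). Of 37310 identifiers 32620 had a symbol, and positions, exon lengths and transcripts came from GENCODE vM21.

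The counts were fitted with edgeR 4.0.16 under R 4.3.3 (limma 3.58.1 was its dependency). Genes kept by filterByExpr (11624) were scaled by TMM and fitted in 1 quasi-likelihood model over 42 libraries and 14 groups, with Benjamini-Hochberg adjustment over all genes tested and a threshold of 0.05. Treatment and time contrasts averaged both genotypes. Levels are TMM-scaled CPM, and CPM per kb divides by exon length. Standard errors were derived from each fold change and its F statistic, and intervals are at 95%. Sums of markers or members have no test. Intervals and levels from PCR-amplified reads without molecular identifiers do not separate molecules from copies.

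Counts were simulated with the same mean per gene in every group and a single dispersion, with changes only in LPS 24 h. There (11244 genes tested) the test recovered 90.9% of genes changed 2-fold and 100% of those changed 4-fold, and 3.55% of its calls were false. A simulated KO against WT comparison at Control 2 h without a change gave 0 calls. Far fewer genes were changed, equally up and down, than the 52.1% called in the real LPS 24 h comparison. These rates therefore do not measure errors from scaling or from the uneven spread of the real libraries.

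Alternatives were RLE size factors, library totals, all genes with a count, a fit of only the groups compared, the Wald test of DESeq2 1.42.0, and leaving out each library. Single genotypes, the change of the LPS difference between 2 and 24 h and the change of the genotype difference in Control were chosen after seeing the data. The members and all gene lists were chosen with earlier results of these data known. The members named were, by rule, the 2 cluster genes and the 2 other genes per family with the highest CPM per kb, the 6 members per direction with the smallest adjusted p in each comparison, and up to 10 called members per genotype comparison. Of the related genes the rule took Slbp, Npat, Mki67, Pcna and the 4 genes per list with the smallest adjusted p at LPS 24 h. H2afx, H2afv, Hist1h2ae, Hist1h2bk, Hist1h3a, Hist1h3c, Hist1h4a, Hist2h2ab, Casp8ap2 and Srrt were named after their values were seen. The libraries of the study from other tissues and species, and its chromatin data, were not analysed here.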

Additional observations from a re-analysis of the deposited data

Results flagged for a closer look

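A difference between times in the response to LPS, 24 h minus 2 h on the log2 scale, passed its own test for 36 members. It did so for 46.3% of all genes, all by edgeR with Benjamini-Hochberg adjustment. Among linker histone genes the difference was -1.71 for Hist1h1a, -1.76 for Hist1h1b, -0.23 for Hist1h1c, -0.84 for Hist1h1d and -0.40 for Hist1h1e. Of the members named by the rule, 4 lost this call when a library was left out. That of Hist1h1c was lost on library totals (-0.13) and without WT library 1 or KO library 1 or 2 of Control 2 h, WT library 1 or 2 or KO library 1 of LPS 2 h, WT library 2 or KO library 1 or 2 of Control 24 h, or WT library 1 or 3 or KO library 1 of LPS 24 h (-0.18 to -0.21). That of Hist1h1e was lost on library totals (-0.30) and without WT library 2 of LPS 2 h (-0.29). Among H2A genes it was -1.25 for Hist1h2ab, -1.16 for Hist1h2ac, -2.35 for Hist1h2af, -1.05 for Hist1h2ag, -1.45 for Hist1h2ah, -1.23 for Hist1h2ai, -1.36 for Hist1h2ak and -1.53 for Hist1h2an. Hist3h2a went the other way, at 1.33.

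Among H2B genes the same difference was -1.28 for Hist1h2bb, -0.69 for Hist1h2be, -0.63 for Hist1h2bg, -1.26 for Hist1h2bj and -1.51 for Hist1h2bk, while Hist1h2bc (0.40) and Hist2h2be (1.46) went the other way. The call of Hist2h2be was lost without WT library 2 of Control 2 h, WT library 3 or KO library 1 of LPS 2 h, library 3 of either Control 24 h group or library 2 of either LPS 24 h group (1.16 to 1.39). Among H3 genes it was -2.24 for Hist1h3a, -2.23 for Hist1h3b, -2.04 for Hist1h3c and -1.09 for Hist1h3e. Among H4 genes it was -0.97 for Hist1h4a, -0.63 for Hist1h4c, -0.65 for Hist1h4d, -1.39 for Hist1h4f, -1.16 for Hist1h4h and -1.03 for Hist1h4k, with Hist1h4i at 0.78, a call lost without library 3 of either LPS 24 h group (0.71 and 0.57). Outside the clusters it was 0.29 for H3f3a, -0.71 for H3f3b, -0.83 for H2afx and -0.52 for H2afz.

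The difference between the libraries labelled KO and WT in Control changed between 0 and 2 h, by its own test, for 8 members (4.77% of all genes), at 2 h minus 0 h. It was 0.58 for Hist1h1d, 1.25 for Hist1h1a, 0.72 for Hist1h2ak, 0.80 for Hist2h2ac, 0.91 for Hist1h4c, 0.79 for Hist1h4d, 0.81 for Hist1h4h and -1.44 for Hist1h4i. The level of Hist1h4i was 3.25, 7.10 and 4.89 CPM in WT and 5.88, 8.72 and 5.39 CPM in KO at 0 h. At 2 h it was 13, 9.25 and 9.32 CPM in WT and 3.98, 5.36 and 5.76 CPM in KO. Between 0 and 24 h (1.83% of all genes called) the change was 0.68 for Hist1h1d, 0.62 for Hist1h4d and 0.62 for Hist1h1e. Single outlying libraries were not tested for, since each group held 3.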

How the results depend on the processing

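No paired analysis was possible because the table's columns carry no replicate number. At LPS 24 h 42 to 44 members were called with 1 library left out, and 37 to 44 under the other alternatives. With library totals in place of TMM, 43 members were called at LPS 2 h (24 with TMM), 7 for KO against WT at Control 0 h (11), of which 1 was higher, 4 at palmitate 2 h (2), 3 for Control 24 h against 0 h (5), and 5 (8) and 0 (3) for the change of the genotype difference to 2 and 24 h. The lists at LPS 2 h then gave 7 maturation genes (3), 13 chaperones (7), 16 DNA replication genes (8) and 7 mitosis genes (4), and 1 DNA replication gene (5) for KO against WT at Control 0 h. H3f3a at LPS 2 h turned to -0.0052, and the summed level of all members at LPS 2 h was 1597 CPM (1776).

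With all genes that had a count, KO against WT gave 2 members at Control 2 h (1), 5 at palmitate 2 h (2), 5 at LPS 2 h (3) and 1 maturation gene at Control 0 h (2), and the genotype difference in the response at 2 h gave 1 member for palmitate (0) and 2 for LPS (0). With only the groups compared, these counts were 2 at Control 2 h, 5 at palmitate 2 h, 0 at LPS 2 h and 5 for the change to 24 h (3). DESeq2 gave 2 at Control 2 h, 4 at palmitate 2 h, 5 for the change to 24 h and 0 mitosis genes at Control 0 h (1). In KO libraries alone 11 members were called at LPS 2 h and 0 at palmitate 2 h (1), and Hist1h4i at LPS 2 h turned to 0.16. At LPS 2 h WT and KO alone gave 1 and 1 maturation genes, 3 and 5 DNA replication genes and 2 and 2 mitosis genes. The cause was not tested.

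With 1 library left out, the called members were 16 to 30 at LPS 2 h, 30 to 35 for the LPS difference between times, 0 to 1 at palmitate 2 h and 0 to 0 at palmitate 24 h. They were 7 to 13, 3 to 5 and 3 to 8 for Control 2 h against 0 h, 24 h against 0 h and 24 h against 2 h. For KO against WT they were 5 to 8 at Control 0 h, 0 to 1 at Control 2 h, 0 to 3 at palmitate 2 h, 1 to 3 at LPS 2 h and 0 to 0 at 24 h, and 4 to 13 and 0 to 2 for its change to 2 and 24 h. The lists gave, at LPS 24 h, 2 h and KO against WT at Control 0 h, 26 to 29, 4 to 10 and 1 to 4 DNA replication genes, 13 to 15, 7 to 9 and 2 to 4 chaperones, 5 to 6, 2 to 5 and 1 to 2 maturation genes, and 27 to 27, 1 to 5 and 0 to 1 mitosis genes. Counting error is largest, relative to the level, for members with few counts, such as H2afy2 with at most 12 in a library.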
